A study of Mus musculus with 8 samples.

Results

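Peptides reach the surface of a cell on MHC class I molecules only after they have been carried into the endoplasmic reticulum, trimmed there and loaded. The 10 genes described here encode proteins of that route and regulators of MHC promoters: Tap1, Tap2, Tapbp, Tapbpl, Erap1, Nlrc5, Rfx5, Rfxap, Rfxank and Ciita. They were chosen by symbol for what their products do, with earlier results of these data known. All 10 were found among the 34478 genes of the deposited table. RNA had been sequenced from 4 primary cell lines of murine pancreatic ductal adenocarcinoma (PDAC), numbered #1, #3, #5 and #10, after 48 h with the MEK inhibitor trametinib (MEKi) or with the solvent DMSO as control. Each line gave 1 library per treatment, so there were 4 DMSO and 4 MEKi libraries. Both groups share their alleles, among them a Cre recombinase in the Ptf1a locus (Ptf1a wt/Cre), which acts in cells of the pancreatic lineage that use Ptf1a, and floxed Trp53 (Trp53 loxP/loxP). Each line is a culture of cells from a pancreatic tumour, kept in DMEM with serum. Trametinib was given at the IC50 of each line, so the dose was set line by line, and neither the doses nor the age of the mice are given in the sources used here. The comparison asks what a short block of MEK does to these genes in tumour cells. Its p-values set the mean change against the spread between these 4 lines. For each gene that spread is drawn by limma towards that of other genes of similar level.

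In outline, the transporter TAP, made of the proteins TAP1 and TAP2, pumps peptides from the cytosol into the endoplasmic reticulum. Tapasin, encoded by Tapbp, bridges TAP and the empty class I molecule and favours the exchange of weak for tight-binding peptides, its relative TAPBPR, encoded by Tapbpl, edits peptides away from TAP, and the aminopeptidase ERAP1 shortens peptides from their amino end. On the DNA side, RFX5, RFXAP and RFXANK form a complex that binds the X box of MHC class I and class II promoters. NLRC5 and CIITA do not bind DNA themselves but are recruited by this complex and its partners, NLRC5 mainly for class I genes and CIITA mainly for class II genes, and both are induced by interferon-gamma in many cell types.

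The deposited values are normalized counts per gene. The libraries summed to between 30680091 and 36385719 normalized counts, and the step between low values puts their depth at about 29300000 to 45900000 reads. A floor of 3 reads, used here as the smallest level the depth can show, comes to 2.33 to 3.72 normalized counts depending on the library. Dusp6 and Etv4, a phosphatase and a transcription factor downstream of MEK, were lower with MEKi in 4 of 4 lines, by log2 fold changes of -2.52 (limma adjusted p = 0.000123) and -5.92 (adjusted p = 0.000201). As to the identity of the cells, the epithelial genes Cdh1 and Krt8 were high in every library, and Epcam was listed at 0 in all libraries but those of line #3. Of the 8 epithelial markers tested, 6 were called lower with MEKi and 1, Cldn4, higher, where 25.6% of all genes tested were lower and 27.3% higher (limma, adjusted p under 0.05). Leukocyte markers, 10 of 11 of which are in the table, summed to 156 to 252 normalized counts with DMSO and 244 to 521 with MEKi, mostly from Cd68 and Csf1r, while Cd3e and Lyz2 stayed at or under the floor in all 8 libraries. Ptprc and Itgam were low but above the floor in all 8, at 4.05 to 17.2 and 3.83 to 27.5 normalized counts. The 9 fibroblast markers summed to 95.8 to 369 with DMSO and 440 to 1260 with MEKi, with Col1a1 as the main part of the MEKi sums, and Lum was listed at 0 everywhere. The 4 endothelial markers summed to 30.9 to 54.6 with DMSO and 62.7 to 831 with MEKi, where the highest sum was mostly Tek in line #3. Of these markers of other cell types, 4 leukocyte, 5 fibroblast and 3 endothelial genes were tested. In each list 1 was called higher and 0 lower, shares of 25%, 20% and 33.3% higher against 27.3% of all genes tested. They were Csf1r (7.11-fold), Col1a1 (12.1-fold) and Tek (13.7-fold), each higher in 4 of 4 lines. Tek reached the mean of 10 needed for the test only through its MEKi libraries, with a mean of 250 against 8.21 with DMSO. The part of these markers in the results below was not tested.

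Promoter stretches of 4 genes and 1 site of Erap1 are shown first, since RFX, NF-Y and interferon-type elements are the DNA sites through which the regulators of these genes act. A window from 250 bases before to 50 bases after the RefSeq start site was given for 5 of the 10 genes (Tap1, Tapbp, Erap1, Rfx5 and Rfxank), and the 250 bases before the start are printed 5′ to 3′ on the strand of the gene, in the build GRCm38.p6. Capitals mark a CCAAT box (CCAAT, or ATTGG where it lies on the other strand), the site of the NF-Y factor, and in Rfx5 also the letters AGCAAC, used here for the core of an X box. For Erap1 only 30 bases around the start are printed, with capitals on an interferon-stimulated response element.
Tap1, chr17:34187306-34187555, plus strand: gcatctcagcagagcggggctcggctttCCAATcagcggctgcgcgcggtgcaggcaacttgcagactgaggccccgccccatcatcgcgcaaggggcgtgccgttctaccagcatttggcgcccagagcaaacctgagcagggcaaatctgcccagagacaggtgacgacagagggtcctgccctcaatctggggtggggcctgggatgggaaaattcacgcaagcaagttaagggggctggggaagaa
Tapbp, chr17:33919228-33919477, plus strand: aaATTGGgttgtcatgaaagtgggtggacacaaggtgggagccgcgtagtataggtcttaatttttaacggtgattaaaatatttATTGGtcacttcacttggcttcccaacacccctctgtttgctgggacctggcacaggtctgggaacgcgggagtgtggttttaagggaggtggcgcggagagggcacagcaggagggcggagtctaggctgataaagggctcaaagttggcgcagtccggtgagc
Rfx5, chr3:94953858-94954107, plus strand: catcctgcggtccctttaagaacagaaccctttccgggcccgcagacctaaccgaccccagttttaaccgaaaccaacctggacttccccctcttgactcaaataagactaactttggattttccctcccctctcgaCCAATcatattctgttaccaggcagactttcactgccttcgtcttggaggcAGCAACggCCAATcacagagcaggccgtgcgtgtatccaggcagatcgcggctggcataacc
Rfxank, chr8:70139198-70139447, minus strand: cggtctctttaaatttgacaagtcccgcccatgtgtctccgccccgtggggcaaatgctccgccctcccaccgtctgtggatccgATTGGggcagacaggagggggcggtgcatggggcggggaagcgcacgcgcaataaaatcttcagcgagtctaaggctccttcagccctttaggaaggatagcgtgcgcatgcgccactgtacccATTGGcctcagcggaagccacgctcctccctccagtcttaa
Erap1, chr13:74639839-74639868, plus strand: ccaccttcacTTTCACTTTCggtcccgggc

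Letters were searched on both strands over the whole 300-base windows. CCAAT was found in 4 of the 5 windows, all but that of Erap1, and in 37.4% of the 32851 RefSeq windows of the same length. Tap1 held it 222 to 218 bases before the start, Tapbp at 248 to 244 and at 165 to 161 bases, and Rfxank at 165 to 161 and at 41 to 37 bases. Rfx5 held it at 113 to 109 and at 54 to 50 bases, the second copy 2 bases downstream of AGCAAC at 62 to 57 bases. Another AGCAAC lay 23 to 28 bases after the start of Rfx5, outside the printed stretch and with no CCAAT after it in the window. AGCAAC was found in no other of the 5 windows, and 14.8% of all windows held it. The letters GAAANNGAAA of the interferon-stimulated response element were found only in Erap1, across its start, against 3.44% of all windows. TGACG, a CREB-type element, was found in Tap1 alone (20.8% of all windows) and the AP-1 letters TGANTCA in Rfx5 alone (7.81%). The gamma-activated site TTCNNNGAA (8.3%) and the ETS letters CCGGAAG (8.86%) were in none of the 5 windows. A match of letters describes a window and does not show that a factor binds there.

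With MEKi, 5 of the 8 genes that could be tested rose and 0 fell. Tapbp rose 3.16-fold, Rfx5 2.08-fold, Tapbpl 1.95-fold and Rfxank 1.44-fold, and Tap2 rose 3.48-fold from a very low level. Erap1, Nlrc5 and Rfxap did not pass the test, and Tap1 and Ciita had a mean under 10 normalized counts over the 8 libraries and were left untested. Read against the whole table, 27.3% of the 15888 genes tested were higher with MEKi and 25.6% lower, with 0.05 as the limit for the adjusted p (limma on log2(normalized count + 1), cell line as a block, Benjamini-Hochberg adjustment over all genes tested). In 4 of the 8 genes every MEKi library stood above every DMSO library, which held for 15.1% of all genes tested. The median log2 fold change was 0.76 over the 8 members and 0.07 over all genes tested, and the members' median is a description without a test. The count of members called lower by limma was 0 in each of the 14 alternative analyses too, and 0 members had an unadjusted p under 0.05 for a fall. All fold changes here are on the log2(normalized count + 1) scale, which understates the change of low genes, and in bulk RNA a smaller number of cells that make a transcript cannot be told apart from less of it per cell.

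**Figure D1:**
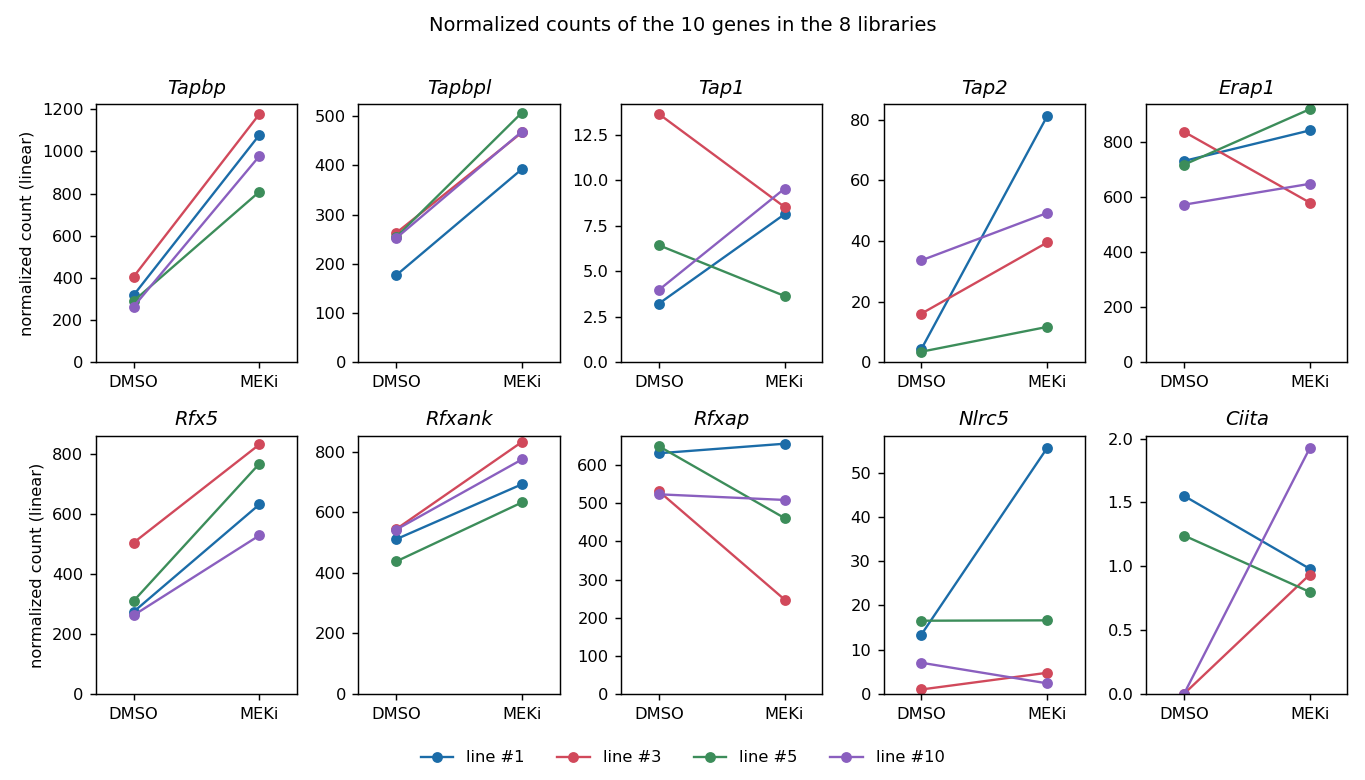
Normalized counts (linear axis, a scale of its own in each panel) of the 10 genes with DMSO and with MEKi, with 1 point per library and a line joining the libraries of each cell line. All lines slope upward for Tapbp, Tapbpl, Tap2, Rfx5 and Rfxank, whereas some rise and some fall for Tap1, Erap1, Rfxap, Nlrc5 and Ciita, and the axes of Tap1 and Ciita end below 15 counts.

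Tapbp (ENSMUSG00000024308.15, chr17:33915899-33929292 of GRCm38, plus strand), the gene of tapasin, showed 319, 406, 291 and 264 normalized counts in the DMSO libraries of lines #1, #3, #5 and #10, in that order. With MEKi it stood at 1078, 1177, 809 and 978. The lowest MEKi library was thus above the highest DMSO library, and the order of the lines was not kept, since line #10 was the lowest with DMSO and line #5 with MEKi. The means were 320.1 ± 61.5 and 1010 ± 157 (SD, n = 4 libraries each). The log2 fold change was 1.66 (standard error 0.12, 95% interval 1.38 to 1.95, adjusted p = 0.000248 in limma) and ran from 1.47 in line #5 to 1.88 in line #10. It lay between 1.58 and 1.79 in every alternative analysis, with adjusted p-values up to 0.00321. In GENCODE M21, exons of Tapbp overlap those of Zbtb22 on the same strand and of Gm19412 on the other, so some reads could have been assigned to either gene. The promoter stretch printed above, at 33919228 to 33919477, ends at the RefSeq start. It lies inside the longer GENCODE gene, which begins at 33915899.

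Tapbpl (ENSMUSG00000038213.7, chr6:125223933-125231860, minus strand), the gene of the tapasin relative TAPBPR, had 177, 263, 254 and 252 normalized counts with DMSO. With MEKi it had 392, 467, 507 and 468. Line #1 was the lowest of its group under both treatments, and the groups did not overlap. From 236.5 ± 40.1 to 458.5 ± 47.9 (SD, n = 4), the log2 fold change was 0.96 (standard error 0.13, 95% interval 0.66 to 1.27, adjusted p = 0.00129 in limma), between 0.83 in line #3 and 1.15 in line #1. It lay between 0.77 and 1.09 in all 14 alternatives. No annotated exon of another gene overlaps Tapbpl.

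Both tapasin genes can be set side by side per length of exon. Length here is that of all annotated exons of a gene merged, not of the transcript in use. Levels compared between genes depend on that choice. With DMSO, Tapbp averaged 88.2 and Tapbpl 101 normalized counts per kb. With MEKi the averages were 279 and 195. The ratio of Tapbp to Tapbpl rose in each of the 4 lines, from 1.17, 1.00, 0.74 and 0.68 to 1.78, 1.64, 1.03 and 1.35 in lines #1, #3, #5 and #10, although the range with DMSO (0.68 to 1.17) and that with MEKi (1.03 to 1.78) overlap. The ratio itself was not tested.

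Tap1 (ENSMUSG00000037321.17, chr17:34187553-34197225, plus strand) and Tap2 (ENSMUSG00000024339.12, chr17:34203527-34216321, plus strand), the subunits of the peptide transporter, are neighbours in the MHC region and were both close to silent next to the tapasin genes. Tap1 had 3.23, 13.7, 6.44 and 3.98 normalized counts in the DMSO libraries, given again in the order #1, #3, #5 and #10, or about 4.2 to 13.1 reads. With MEKi it stood at 8.14, 8.54, 3.65 and 9.55, or about 4.6 to 9.9 reads. Lines #1 and #10 were higher with MEKi (log2 fold changes of 1.11 and 1.08) and lines #3 and #5 lower (-0.62 and -0.68), each on so few reads that a difference of this size was not resolved, and the groups overlap. Exons of Tap1 overlap those of Psmb9 on the other strand, and Psmb9 itself was between 0 and 4.32 normalized counts in every library.

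Tap2 had 4.41, 16.1, 3.53 and 33.7 normalized counts with DMSO. With MEKi it had 81.2, 39.6, 11.7 and 49.3. It was higher in 4 of 4 lines, but by amounts as different as a log2 fold change of 0.54 in line #10 and 3.93 in line #1, and the groups overlap because line #10 with DMSO was above line #5 with MEKi. The DMSO library of line #5 was under the floor, at about 2.8 reads. The log2 fold change over the lines was 1.80 (standard error 0.56, 95% interval 0.46 to 3.14) and passed the test (adjusted p = 0.0335 in limma). Without line #1 it was 1.09 (adjusted p = 0.071) and without line #5 1.90 (adjusted p = 0.0776), so the call needed both lines, and over all alternatives its adjusted p ran from 0.0257 to 0.121. The spread among the lines was wide under both treatments, with the highest library 9.54 times the lowest with DMSO and 6.93 times with MEKi. Exons of Gm15821 and Gm20496 lie on the other strand of Tap2.

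Erap1 (ENSMUSG00000021583.7, chr13:74639568-74693201, plus strand), the aminopeptidase that trims peptides in the endoplasmic reticulum, was well expressed in every library. Its normalized counts were 732, 839, 719 and 573 with DMSO and 843, 581, 920 and 649 with MEKi. Lines #1, #5 and #10 were slightly higher with MEKi and line #3 lower, by a log2 fold change of -0.53, and the groups overlap throughout. On average the log2 fold change was 0.05 (standard error 0.16, 95% interval -0.33 to 0.44, adjusted p = 0.803 in limma). Its sign turned to -0.05 without line #5 and to -0.01 with each library centred on its median, and without line #3 it was 0.25 (adjusted p = 0.0803). The interferon-type element printed above lies at the RefSeq start, within the first part of the longer GENCODE gene, and exons of Cast lie on the other strand of Erap1.

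Of the DNA-binding RFX complex, the subunits did not move alike. Rfx5 (ENSMUSG00000005774.12, chr3:94954075-94961561, plus strand), which carries the DNA-binding domain, had 274, 505, 310 and 262 normalized counts with DMSO. With MEKi it had 632, 832, 768 and 529. Line #3 was the highest and line #10 the lowest under both treatments, and the groups did not overlap, if only by the gap between 505 and 529. From 338 ± 113 to 690.3 ± 136 (SD, n = 4), the log2 fold change was 1.06 (standard error 0.14, 95% interval 0.73 to 1.39, adjusted p = 0.0012 in limma), from 0.72 in line #3 to 1.31 in line #5. It was between 0.93 and 1.19 in all alternatives. An overlapping gene on the other strand is B230398E01Rik.

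Rfxank (ENSMUSG00000036120.10, chr8:70130794-70139154, minus strand), the ankyrin-repeat subunit, had 512, 545, 438 and 543 normalized counts with DMSO. With MEKi it had 693, 833, 633 and 775. The rise was small but the most even of all 10 genes, with log2 fold changes from 0.44 to 0.61 over the lines (SD 0.07), and the groups did not overlap. Its log2 fold change was 0.52 (standard error 0.10, 95% interval 0.28 to 0.77, adjusted p = 0.00533 in limma), and 0.46 to 0.65 over the alternatives. Exons of Nr2c2ap lie on its other strand.

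Rfxap (ENSMUSG00000036615.6, chr3:54803115-54807791, minus strand), the remaining subunit, had 631, 532, 650 and 524 normalized counts with DMSO. With MEKi it had 656, 248, 461 and 509. Line #3 with MEKi stood far under every other library, line #5 was lower too, and lines #1 and #10 were near their controls. The log2 fold changes were 0.06, -1.10, -0.49 and -0.04 in lines #1, #3, #5 and #10, and their fitted mean of -0.40 (standard error 0.20, 95% interval -0.88 to 0.09, adjusted p = 0.146 in limma) did not pass the test. Without line #3 it was closest to 0, at -0.16. No annotated exon overlaps Rfxap.

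**Figure D2:**
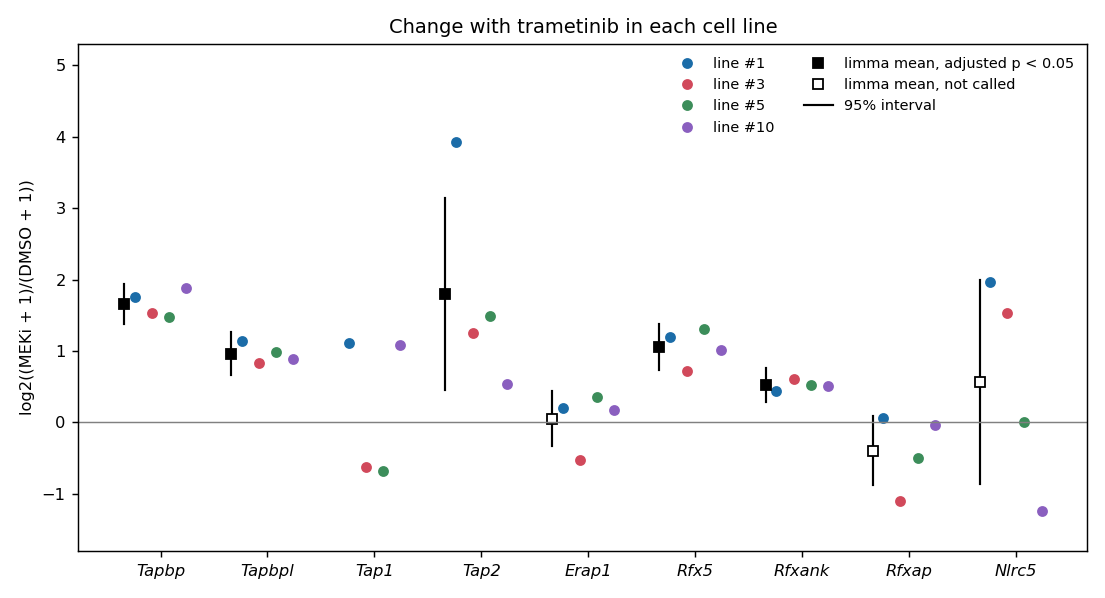
Log2 ratio of MEKi to DMSO for 9 of the 10 genes, after adding 1 to both values (Ciita, at or under the floor everywhere, is left out), with coloured points for the 4 cell lines, squares for the limma mean of the 8 genes tested (filled where called) and bars for the 95% interval. Tapbp, Tapbpl, Rfx5 and Rfxank have short intervals above 0, Tap2 and Nlrc5 have wide ones, and the lines fall on both sides of 0 for Tap1, Erap1, Rfxap and Nlrc5.

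Per length of exon, Rfxap had the highest value of the subunits with DMSO in each line, at 234 to 290 normalized counts per kb. Rfxank followed at 110 to 137 and Rfx5 at 47.7 to 91.8, and the ranges do not overlap. That order depends on the annotated exon lengths, 2.242 kb for Rfxap and 3.967 kb for Rfxank. Before division by length, Rfxank with DMSO was above Rfxap in lines #3 (545 against 532) and #10 (543 against 524). It was below Rfxap in lines #1 (512 against 631) and #5 (438 against 650). With MEKi the order per kb was no longer clear, with 110 to 293 for Rfxap, 160 to 210.1 for Rfxank and 96.2 to 151 for Rfx5. The ratio of Rfx5 to Rfxap was 0.18, 0.39, 0.19 and 0.20 with DMSO and 0.39, 1.37, 0.68 and 0.42 with MEKi in lines #1, #3, #5 and #10, higher in each line. The ratio of Rfxank to Rfxap went from 0.46, 0.58, 0.38 and 0.59 to 0.60, 1.90, 0.78 and 0.86, also higher in each line. Neither ratio was tested. In line #3 with MEKi, Rfxap was the lowest of the subunits per kb, which was so in no other library.

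**Figure D3:**
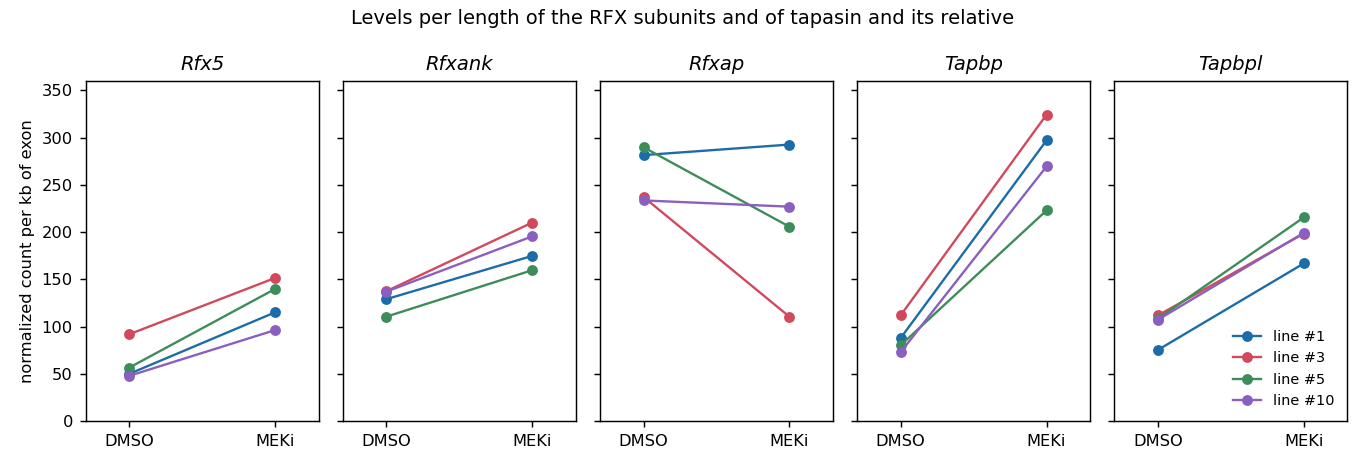
Normalized counts per kb of exon (linear axis shared by all panels) for the RFX subunits and for the tapasin genes Tapbp and Tapbpl, with 1 point per library and a line joining the libraries of each cell line. With DMSO Rfxap lies above Rfxank and Rfxank above Rfx5, and with MEKi Tapbp is the highest of the 5 in lines #1, #3, #5 and #10.

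The co-activators were low or not seen. Nlrc5 (ENSMUSG00000074151.13, chr8:94434356-94527272, plus strand), the co-activator of class I genes, had 13.4, 1.00, 16.5 and 7.04 normalized counts with DMSO and 55.6, 4.77, 16.6 and 2.39 with MEKi. Line #1 with MEKi was the only library above 20 counts, line #5 was level, line #3 had about 1 read with DMSO, under the floor, and about 5.1 with MEKi, and line #10 was lower on about 7.3 and 2.5 reads. The log2 fold changes of 1.97, 1.53, 0.01 and -1.25 in lines #1, #3, #5 and #10 gave a mean of 0.57 (standard error 0.60, 95% interval -0.86 to 1.99, adjusted p = 0.452 in limma). Left-out lines moved that mean between 0.10 and 1.17, and quantile normalization brought it to 0.02, with no call in any analysis. In line #1, where Nlrc5 was highest with MEKi, Tap2 had its largest change as well, which rests on 1 line and was not tested. Exons of 9330175E14Rik lie on its other strand.

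Ciita (ENSMUSG00000022504.10, chr16:10480059-10528418, plus strand), the co-activator of class II genes, had 1.55, 0, 1.24 and 0 normalized counts with DMSO and 0.98, 0.93, 0.80 and 1.93 with MEKi. These are 0 to 2 reads, at or under the floor in all 8 libraries, so Ciita was not detectable at this depth under either treatment and no fold change is given. Its exons overlap those of Dexi on the other strand.

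Ordered by level per kb with DMSO, the 10 genes were Rfxap (260.5), Rfxank (128), Tapbpl (101), Erap1 (98.3), Tapbp (88.2), Rfx5 (61.5), Tap2 (3.81), Tap1 (1.25), Nlrc5 (1.12) and Ciita (0.073). Places close together in this order depend on the annotated exon lengths. Rfxap stood above Rfxank without overlap, while from Rfxank down to Rfx5 the libraries of each gene overlapped those of the next. A gap followed between Rfx5, at 47.7 or more, and Tap2, at 8.90 or less, and from Tap2 down to Ciita neighbours overlapped again. With MEKi, Tapbp came first (279), ahead of Rfxap (209), Tapbpl (195), Rfxank (185), Rfx5 (126) and Erap1 (103). The low genes stayed low, with Tap2 at 12.0, Nlrc5 at 2.34, Tap1 at 1.36 and Ciita at 0.12 per kb. Across the DMSO lines the genes also differed in how even they were, since the highest library was 1.24 times the lowest for Rfxank and for Rfxap, 1.46 to 1.92 times for Erap1, Tapbpl, Tapbp and Rfx5, and 4.23, 9.54 and 16.5 times for Tap1, Tap2 and Nlrc5, where counting error is large.

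Over the 8 libraries, Tapbp followed Rfxank (Pearson r = 0.92 on the log2 scale), Rfx5 (0.91) and Tapbpl (0.89), and Rfxap ran against Rfxank (-0.66). Nlrc5 followed neither Tapbp (0.09) nor Rfx5 (-0.02). Genes of the whole table with the most similar pattern were Arid3a (0.993) for Tapbp, Crbn (0.988) for Tapbpl, Ttbk2 (0.996) for Rfxank, Zscan26 (0.983) for Rfx5, Slc25a1 (0.985) for Rfxap, Zfp507 (0.946) for Erap1, Rnf5 (0.96) for Tap2 and Pi4ka (0.988) for Nlrc5. These correlations describe 8 libraries that share a treatment and, in pairs, a cell line, and carry no test.

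The proteins that work beside these genes were followed through lists of 71 pathway genes. The counts below stand against 27.3% higher and 25.6% lower among all genes tested, and no list was tested as a whole. Of the 10 partners in the loading complex and its folding cycle, 3 rose and 0 fell, a share of 30% higher that is close to that of all genes, with a median log2 fold change of 0.21 against 0.07 over all genes tested. The 3 were the class I light chain B2m, at 1.32 (adjusted p = 0.000335 in limma), and the heavy chains H2-K1, at 0.84 (adjusted p = 0.00433), and H2-D1, at 0.45 (adjusted p = 0.00528). The chaperones and glycan enzymes Calr, Canx, Pdia3, Uggt1, Ganab, Prkcsh and Hspa5 did not pass, with log2 fold changes from -0.17 for Canx to 0.28 for Hspa5. The count of genes called higher depended on the scaling, with 5 when libraries were rescaled to equal totals and 6 with quantile normalization. The median log2 fold change of all genes tested was 0.07 as deposited, 0.20 with equal totals and -0.03 with quantile normalization. Without line #3, 1 gene of the list was called lower.

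Upstream of TAP, where proteasomes and cytosolic peptidases make and destroy peptides, 5 of 9 genes tested were lower and 2 higher, with a median of -0.35. Psmb10, a catalytic subunit of the immunoproteasome, had 594, 904, 711 and 1083 normalized counts with DMSO. With MEKi it had 224, 214, 272 and 454, below every DMSO library (log2 fold change -1.53, adjusted p = 0.000682 in limma). The peptidases Thop1 (-1.19, adjusted p = 0.00069), Lap3 (-0.80, adjusted p = 0.000518) and Blmh (-0.71, adjusted p = 0.0124) fell as well, and Tpp2 fell by 0.35 (adjusted p = 0.0121), a call kept in 10 of 14 alternatives and lost without line #1 (adjusted p = 0.0611), with equal totals (0.0653) and with quantile normalization (0.0674). The proteasome activators Psme1 (0.24, adjusted p = 0.0469) and Psme2 (0.36, adjusted p = 0.0181) rose slightly. Neither passed without line #1 (adjusted p = 0.15 and 0.0693) or without line #5 (0.0946 and 0.0808). Psme1 kept its call in 7 of 14 alternatives, and also lost it without line #10 (adjusted p = 0.153), with libraries centred on their medians (0.126), without a filter (0.0887) and without the trend (0.0789). Psmb8 and Psmb9, the other inducible catalytic subunits, were below the filter, at 0 to 8.34 and 0 to 4.32 normalized counts. Of the list, Nrdc was not matched in the table.

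Genes documented as NLRC5 targets rose in 5 of 8 tested and fell in 0, with a median of 0.75. Beside B2m, H2-K1 and H2-D1 these were the non-classical class I genes H2-Q4 (1.21, adjusted p = 0.00307 in limma) and H2-M3 (1.12, adjusted p = 0.0262). The call of H2-M3 was lost without line #1 (adjusted p = 0.0951), line #3 (0.0747) or line #10 (0.0576), and with quantile normalization (0.125). H2-Q7, H2-T22 and H2-T23 did not pass, and Tap1, Psmb9 and H2-Q6 were below the filter. The class I heavy chains are near copies of each other, so the counts of single members are uncertain.

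Among 9 factors that act with RFX on the SXY module of MHC promoters, 4 fell and 1 rose, with a median of -0.14. The fallers were Atf1 (-0.99, adjusted p = 0.000582 in limma), the NF-Y subunit Nfyb (-0.69, adjusted p = 0.00262), Creb1 (-0.45, adjusted p = 0.00415) and the NF-Y subunit Nfyc (-0.36, adjusted p = 0.0149), the last not passing without line #5 (adjusted p = 0.0674) or line #10 (0.0645), or with equal totals (0.0632). The acetyltransferase Kat2b rose by 1.15 (adjusted p = 0.00163). Nfya, Crebbp and Ep300 were among those that did not pass. Other members of the RFX family, which bind related sites but are not part of this complex, gave 2 lower of 4 tested and 0 higher: Rfx1 (-0.53, adjusted p = 0.0129) and Rfx7 (-0.39, adjusted p = 0.0189), the latter kept in 9 of 14 alternatives and lost without line #1 (adjusted p = 0.0729), with equal totals (0.0787), with quantile normalization (0.0618) and without the trend (0.052).

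On the class II side, where CIITA acts, 6 of the 8 listed genes in the table were below the filter and 5 were at or under the floor in every library. Cd74, the invariant chain, had 0, 2.08, 0 and 2.90 normalized counts with DMSO and 8.84, 3.80, 5.43 and 8.72 with MEKi, too few for the test. The peptide editor gene H2-DMb1 had 4.91, 8.62, 0 and 18.2 with DMSO and 15.9, 64.6, 3.63 and 28.7 with MEKi, a rise of 1.78 on the log2 scale (limma, adjusted p = 0.0153) that did not pass without line #5 (adjusted p = 0.0503). The rise came to 2.61 with a pseudocount of 0.1 and to 1.19 with a pseudocount of 5. H2-DMb1 passed the filter only through its MEKi libraries, with a mean of 28.2 against 7.93 with DMSO, so its call is weak support for a rise. Its partner H2-DMa did not pass (0.75, adjusted p = 0.256). H2-Eb1 and H2-Ob were not matched in the table.

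Of the 16 genes that carry interferon signals to Nlrc5 and Ciita, 15 were tested, 10 rose and 3 fell, with a median log2 fold change of 0.50. The largest rise was that of Stat2, from 588, 862, 569 and 589 normalized counts with DMSO to 1642, 2033, 1750 and 1614 with MEKi (1.45, adjusted p = 0.000229 in limma). Its partner Irf9 (0.76, adjusted p = 0.00965), the kinase Tyk2 (0.67, adjusted p = 0.00127), the receptor chains Ifngr2 (0.61, adjusted p = 0.0023) and Ifnar1 (0.55, adjusted p = 0.00168), Usf1 (0.58, adjusted p = 0.00348) and Jak2 (0.43, adjusted p = 0.00532) rose too. Ifngr1 (0.50, adjusted p = 0.03), Irf1 (0.40, adjusted p = 0.0488) and Jak1 (0.23, adjusted p = 0.0413) passed as fitted, but each lost its call without line #1, line #5 or line #10, with adjusted p-values of 0.0652 to 0.177. With all lines they also lost it without a filter, without the block and without the trend, and their calls were kept in 8 (Ifngr1), 5 (Irf1) and 7 (Jak1) of 14 alternatives. The brakes Socs1 (-2.37, adjusted p = 0.00909) and Socs3 (-0.69, adjusted p = 0.00697) fell. The change of Socs1 ran from -0.94 in line #3 to -4.25 in line #10 and came to -1.75 without line #10. Irf2 fell as well (-0.45, adjusted p = 0.0174), a call lost without line #10 (adjusted p = 0.068) and with libraries rescaled to equal totals (0.0555).

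**Figure D4:**
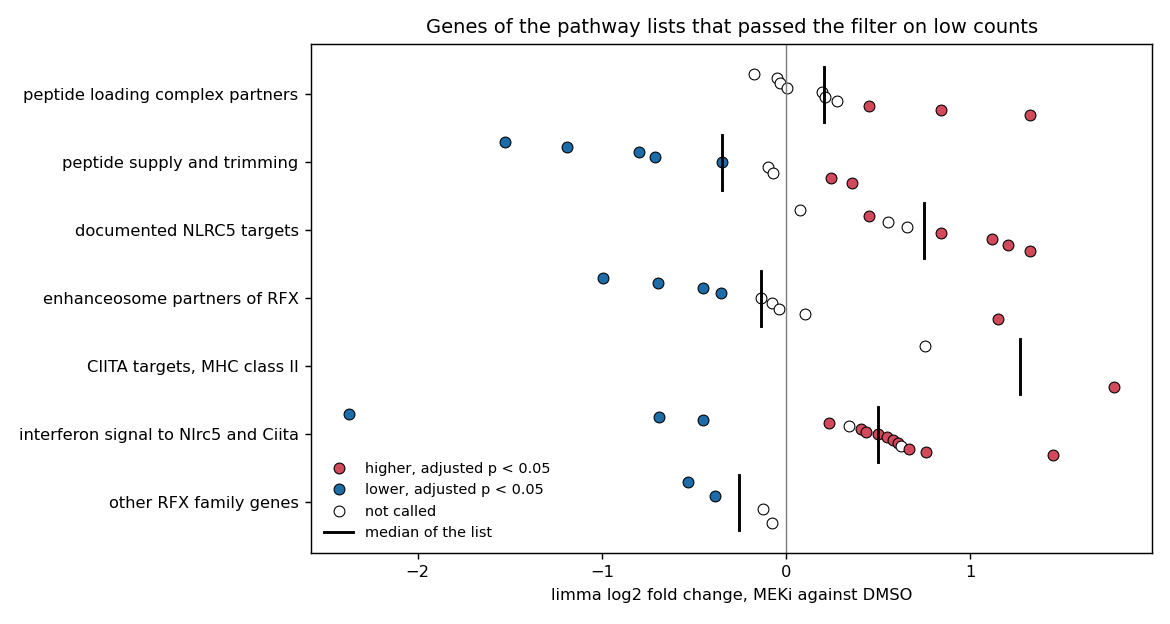
Limma log2 fold change, MEKi against DMSO, of every gene that was tested in the 7 pathway lists, with 1 point per gene (red higher, blue lower, white not called) and a bar at the median of the list, the vertical spread within a list having no meaning. Interferon signal genes and documented NLRC5 targets lie mostly to the right of 0, while the enhanceosome partners of RFX and the genes of peptide supply and trimming lie mostly to the left.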

How the data were processed

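RNA of 8 libraries (4 lines, DMSO and MEKi) was prepared with a stranded mRNA kit and sequenced in pairs of 100 bases. The authors deposited 1 table with a signal for each gene and library, the count as normalized by the authors. The submitters' processing notes name CASAVA 2.17, Salmon 0.12, DESeq2 1.18 and the build mm10, which is GRCm38. The annotation, the strand setting and how replicates entered the scaling are not given in the sources used here. Of values under 20 reads, 40.5% to 62.4% per library lay within 0.02 of a whole read, so whole reads were not recovered and no count model was used. The table holds 34478 genes, 3398 of them at 0 throughout.

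Starting from the deposited normalized counts, log2(value + 1) was fitted with limma 3.58.1 in R 4.3.3 (lmFit, eBayes with a mean-variance trend, cell line as a block) over 15888 genes (mean over the libraries of 10 or more), with Benjamini-Hochberg adjustment and a threshold of 0.05. The fit was tested on simulated data. The DMSO and MEKi libraries with the same number are paired, as the number in the labels is that of the cell line, and they deviated together from the treatment means (correlation across genes of 0.644, 0.647, 0.631 and 0.724 in lines #1, #3, #5 and #10). Groups came from the sample titles. Named genes were all 10 members, list genes whose role is described, Dusp6 and Etv4, and for each member tested the genes of most similar pattern by Pearson correlation over the 8 libraries. The members, lists and alternatives were chosen with earlier results of these data known. The alternatives changed the pseudocount (0.1, 5), the scaling (equal totals, quantile normalization, centring on medians), the filter (none, mean of 50), the block (no replicate block) and eBayes (no trend, robust), and left out each line in turn.

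Positions and exon lengths (all annotated exons of a gene merged) were taken by symbol from GENCODE M21 (GRCm38), and promoter windows from RefSeq (GRCm38.p6). Windows of Tap2, Tapbpl, Nlrc5, Rfxap and Ciita were not used here. An allele of the mice and the values of some list genes are not reported here. Python 3.11.15, numpy 2.4.6, pandas 2.3.3 and matplotlib 3.10.9 were used for tables and plots.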

Additional observations from a re-analysis of the deposited data

Results flagged for a closer look

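Tapbpl with DMSO stood at 177 normalized counts in line #1, apart from 252 to 263 in the other lines. Ciita with MEKi stood at 1.93 in line #10 against 0.80 to 0.98 in the others, all of them at or under the floor of 3 reads. These 2 are the groups of 4 values, out of 30 searched over the members, in which 1 library lay far from the rest, and chance gives about 1 in 20, or 1.5 here.

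In 4 members with at least 1 library above the floor the lines moved in opposite directions with MEKi, and Ciita, whose lines also differed in sign, was left out because all its values are at or under the floor. The gap between the highest and the lowest line on the log2 scale was 3.22 for Nlrc5 (1.97 in line #1, -1.25 in line #10), 1.79 for Tap1 (1.11 in line #1, -0.68 in line #5), 1.16 for Rfxap (0.06 in line #1, -1.10 in line #3) and 0.89 for Erap1 (0.36 in line #5, -0.53 in line #3). With 1 library per line and treatment the difference between lines was not tested. Nlrc5 was at or under the floor in line #3 with DMSO and in line #10 with MEKi. For Nlrc5 and Tap1 the gap rests on few reads, 1 to 56.8 and 4.2 to 13.1 per library.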

How the results depend on the processing

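Of 120 member results over 14 alternatives, 6 lost their call, all of Tap2, and 2 changed direction among the genes tested, both of Erap1. The untested mean of Tap1, 0.23, also changed direction, to -0.07 without line #1 and -0.06 without line #10. Tap2 kept its direction but not its call with quantile normalization (1.36, adjusted p = 0.1), no filter (1.80, adjusted p = 0.0624), no replicate block (1.80, adjusted p = 0.121) and eBayes without trend (1.80, adjusted p = 0.0569), and ranged from 1.09 to 2.22 when lines were left out. Erap1 turned to -0.006 with libraries centred on their medians and to -0.049 without line #5, and ranged from -0.049 to 0.246 when lines were left out. The causes were not tested. Between 4 and 5 members were higher and 0 lower in every alternative. Without the replicate block for the paired libraries, calls fell to 2205 higher and 2347 lower over all genes and to 9 and 9 in the pathway lists, from 4341 and 4075 and from 19 and 14. Of the 33 called list genes and the 2 genes of the MEK check, 20 kept their call in every alternative fitted, 15 lost it without the replicate block, and 0 reversed. H2-K1, H2-Q4, Jak2 and Blmh lost it in that alternative only (adjusted p = 0.187, 0.182, 0.131 and 0.0509 in limma). Tap1 and Ciita had no test except without a filter (adjusted p = 0.782 and 0.536), and Tap2, Nlrc5, Tap1 and Ciita were left out by the filter at 50. Depth limits Tap1, Tap2, Nlrc5 and Ciita, whose counts are near the floor in some or all libraries.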
